A study of Mus musculus with 3 samples.

Results

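The NLRP3 inflammasome and the interleukin-1 family were described in mouse heart RNA from 10 listed genes: Nlrp3, Pycard, Casp1, Gsdmd, Il1b, Il18, Il33, Il1r1, Il1rl1 and Il1rn. The genes were taken by symbol from the table of expression values, and 9 of the 10 had a probe that names exactly 1 gene, among 19505 genes in all. Il1rl1, which encodes the receptor of interleukin-33, was not analysed here. The heart was measured on 3 Affymetrix arrays, 1 per group. The AAC + DAPA mice had abdominal aortic constriction (AAC), a ligature that loads the left ventricle with pressure, and then received dapagliflozin (DAPA), which blocks the renal glucose transporter SGLT2, with their drinking water for 12 weeks (25 mg/kg daily). The AAC mice had the constriction, and per the study's methods both they and the sham mice received saline. The sham mice had the operation with the silk removed before ligation. All mice are labelled wild-type C57BL/6 males of 10 weeks, which cannot be the age at which hearts were taken after 12 weeks of treatment. The study's methods give a younger age for the mice as obtained, and no source used here says whether RNA of several hearts was pooled.

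The NLRP3 inflammasome is a protein complex of the innate immune system. NLRP3 senses cell damage and gathers the adaptor ASC, encoded by Pycard, which brings caspase-1 molecules together so that they activate one another. Caspase-1 then cuts the precursors of interleukin-1β and interleukin-18 into active cytokines, and cuts gasdermin D, whose fragment opens pores in the cell membrane. Interleukin-33 is different, since it lies in full length in the nucleus of stromal and lining cells and is set free when cells are damaged. In the heart the complex is known mainly from macrophages, fibroblasts and injured myocardium, and both the priming of its genes and the cutting of its proteins are regulated. Arrays read transcripts, so the cutting is outside what was measured.

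Defining markers of heart muscle were near the top of every array, with Myh6 at 19.03 in AAC + DAPA, 19.05 in AAC and 19.09 in sham (log2). The array medians over genes were 5.28 in AAC + DAPA, 5.31 in AAC and 5.28 in sham. The AAC array stood apart, with 24 of 32 measured genes of the Y chromosome at least 1.5-fold higher on it than on both others, although all mice are labelled male. The comparison of AAC + DAPA with sham, which does not use that array, is therefore given beside those that do. With 1 array per group no difference has a replicate check and no test was run. As a partial measure of error, the log2 difference varied between probes of the same gene, over 55 genes with several probes, with an SD of 0.31 for AAC against sham, 0.26 for AAC + DAPA against AAC and 0.19 for AAC + DAPA against sham. These SDs hold no variation between animals.

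The genes of the inflammasome complex itself had the same value on all arrays, and of the 9 measured genes Il33 alone passed 1.5-fold. Between AAC and sham, 0 of the 9 measured genes were at least 1.5-fold higher, where 4.88% of all genes were, and 0 were at least 1.5-fold lower, where 4.98% were. For AAC + DAPA against AAC, 1 of 9 was higher (all genes 4.16%) and 0 were lower (4.18%). For AAC + DAPA against sham, 1 of 9 was higher (3.22%) and 0 were lower (3.38%). At 2-fold, 0 of 9 were higher in AAC + DAPA against AAC, where 0.831% of all genes were, and 1 of 9 against sham, where 0.872% were. The median log2 difference over the 9 genes was 0.00 in each comparison, as it was over all genes. Any pair of these comparisons has an array in common, which for both comparisons with the AAC group is that of AAC. When the arrays were centred on their medians, the shares of all genes for AAC + DAPA against AAC became 5.57% higher and 3.2% lower, and the counts of the 9 genes stayed the same.

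**Figure D1:**
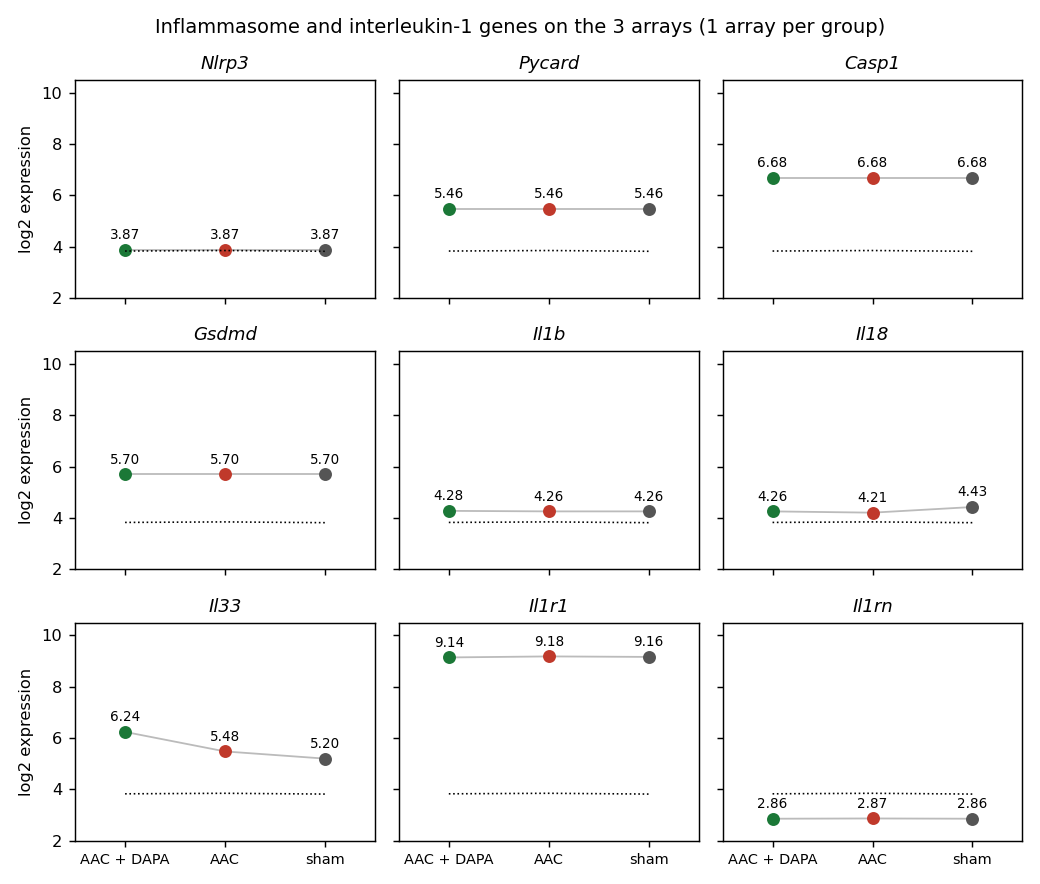
Log2 expression (vertical axis) of the 9 measured genes on the AAC + DAPA, AAC and sham arrays, 1 point per array, with the 25th percentile of all genes on each array as a dotted line. Nlrp3, Pycard, Casp1 and Gsdmd lie at 1 value on all 3 arrays, Il33 is at 6.24 in AAC + DAPA, 5.48 in AAC and 5.20 in sham, and Il1rn lies under the dotted line.

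Nlrp3, the sensor of the complex, stood at 3.87 in AAC + DAPA, 3.87 in AAC and 3.87 in sham (log2). These values lay just above the 25th percentile of the arrays, which was 3.83 in AAC + DAPA, 3.85 in AAC and 3.82 in sham. Pycard, the gene of the adaptor ASC, stood at 5.46 on each of the 3 arrays, close to the array medians. Casp1, the gene of the protease caspase-1, stood at 6.68 on each, at percentiles of 63.0 to 63.1 of the arrays. Gsdmd, the gene of the pore-forming gasdermin D, stood at 5.70 on each. The log2 difference of these 4 genes was thus 0.00 in all 3 comparisons, and no array was high or low for any of them. With the arrays centred on their medians, the difference was 0.07 for AAC + DAPA against AAC, 0.01 for AAC + DAPA against sham and −0.06 for AAC against sham in each of the 4.

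Identical values were common on these arrays. Of all 19505 genes, 2904 (14.9%) had the same value, to the 2 decimals deposited, on all 3 arrays, and 52.2% had the same value on at least 2. Of the 9 measured genes 4 (44.4%) were identical on all 3 arrays and 6 (66.7%) on at least 2. The share identical on all 3 fell with the level, being 21.2% in the lowest quartile of genes by mean level, 19.0% in the next, 12.3% in the quartile that holds Pycard, Casp1, Gsdmd and Il33, and 7.12% in the highest. Whether such values mean equal amounts of RNA or come from the summary of the probes was not tested, so an identical value is given here only as a difference of 0.00 in the deposited table.

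Il1b, the gene of interleukin-1β, stood at 4.28 in AAC + DAPA, 4.26 in AAC and 4.26 in sham. Its largest difference was 0.02, and it lay at percentiles of 34.4 to 35.3 of the arrays. Il18, the gene of interleukin-18, stood at 4.26 in AAC + DAPA, 4.21 in AAC and 4.43 in sham. The sham array was the high one, and the log2 difference was −0.22 for AAC against sham, 0.05 for AAC + DAPA against AAC and −0.17 for AAC + DAPA against sham. Each of these is smaller than the SD between probes of a gene in its comparison.

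Il33, the gene of the alarmin interleukin-33, stood at 6.24 in AAC + DAPA, 5.48 in AAC and 5.20 in sham. The AAC + DAPA array was the high one, and the AAC and sham arrays lay nearer to each other. The level was 1.69-fold higher in AAC + DAPA compared with AAC (log2 difference 0.76) and 2.06-fold higher than in sham (1.04). Between AAC and sham the log2 difference was 0.28, within the SD between probes of a gene. Of all 19505 genes, 419 (2.15%) had a difference at least as high as that of Il33 for AAC + DAPA against AAC, and 151 (0.774%) for AAC + DAPA against sham. The middle 95% of all genes lay between −0.73 and 0.72 for AAC + DAPA against AAC and between −0.65 and 0.66 for AAC + DAPA against sham, and Il33 lay outside both ranges. In its quartile of mean level, 6.32% of genes were at least 1.5-fold higher in AAC + DAPA compared with AAC, and 4.82% than in sham.

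**Figure D2:**
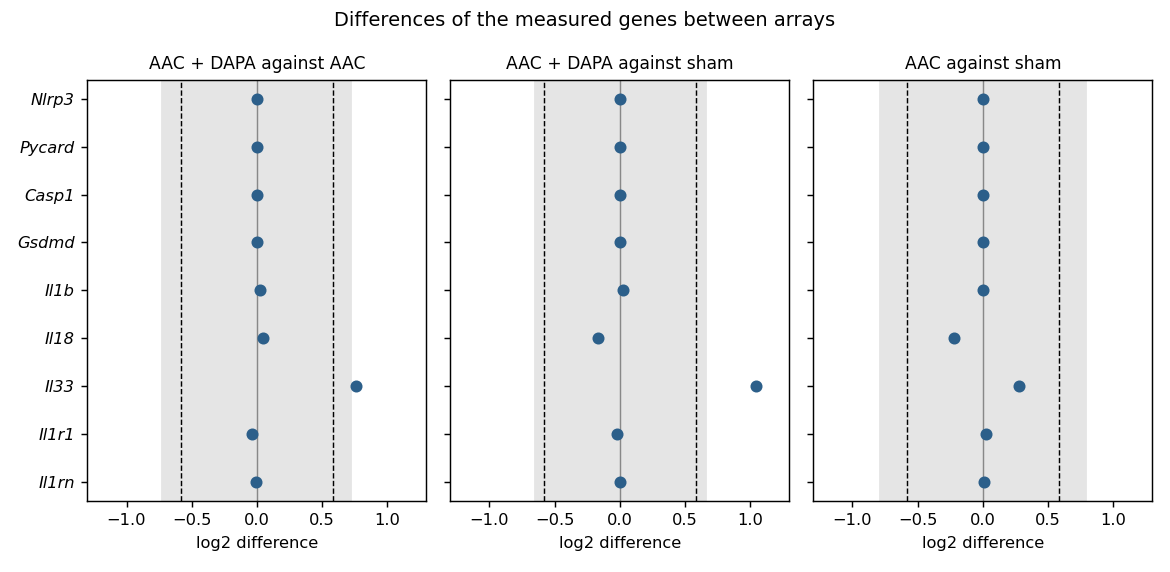
Log2 difference (horizontal axis) of each measured gene for AAC + DAPA against AAC, AAC + DAPA against sham and AAC against sham. The grey band holds the middle 95% of all genes and the dashed lines mark 1.5-fold; Il33 lies outside the band at 0.76 and 1.04 in the comparisons of AAC + DAPA and inside it at 0.28 for AAC against sham.

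Markers of the cells that Il33 is known from, and beside them markers of atrial tissue, were read on the same arrays. In bulk heart RNA, more cells of a type and more RNA per cell cannot be told apart. Over all genes, 4.16% were at least 1.5-fold higher and 4.18% lower for AAC + DAPA against AAC. The shares were 3.22% and 3.38% for AAC + DAPA against sham, and 4.88% and 4.98% for AAC against sham. With so few markers per list, counts of 0 or 1 lie near these shares. At 1.5-fold, of 7 measured endothelial markers none was higher on the AAC + DAPA array and 1, Kdr, lay 1.58-fold below its AAC level, and the log2 of their summed level was 14.49 in AAC + DAPA, 14.70 in AAC and 14.78 in sham. Of 7 measured fibroblast markers, none was higher on the AAC + DAPA array and 1, Tcf21, lay 1.52-fold below its AAC level, with summed levels of 17.92 in AAC + DAPA, 18.02 in AAC and 17.78 in sham. Most of this sum was Dcn, at 17.87 in AAC + DAPA, 17.97 in AAC and 17.68 in sham. The mean log2 level of the fibroblast markers had another order, at 9.79 in AAC + DAPA, 9.96 in AAC and 10.23 in sham. Tcf21 fell short of 1.5-fold with centring (−0.53) and with quantile normalization (−0.56). Set against sham, the AAC + DAPA array had 0 endothelial markers higher and 1 lower, and 0 fibroblast markers higher and 2 lower, Col3a1 and Lum. Mesothelium and fat gave 0 of 5 markers past 1.5-fold in any comparison, with Msln, Upk3b, Adipoq and Plin1 at or under the 25th percentile on every array. The summed level of mesothelium and fat was 5.96 in AAC + DAPA, 5.90 in AAC and 5.99 in sham. The list of atrial tissue had a summed level of 19.37 in AAC + DAPA, 17.83 in AAC and 14.31 in sham. This sum was almost all Nppa, which stood at 19.37 in AAC + DAPA, 17.83 in AAC and 14.30 in sham. Of the 4 atrial markers Nppa alone, the natriuretic peptide gene that loaded ventricles also express, passed 1.5-fold. In AAC + DAPA it was 2.91-fold above AAC and 33.6-fold above sham. Sln and Myl4 lay within 1.5-fold in each comparison and Myl7 was at or under the 25th percentile on every array. The part of any of these cells in the value of Il33 was not tested.

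The probe of Il33 is annotated with 2 RefSeq transcripts of the gene, and RefSeq lists starts at separate places, so the value does not tell which start was used. The 250 bases before each start are shown because Il33 was the one of the 9 measured genes past 1.5-fold, and those of Il1b because its level was nearly equal on the 3 arrays. They come from RefSeq on build GRCm38.p6, written 5′ to 3′ in the direction of the gene, and the capitals mark the TATA motif, TATAAA on either strand. The first Il33 window is chr19:29924863-29925112 on the plus strand, the second chr19:29945540-29945789 on the plus strand, and that of Il1b chr2:129371140-129371389 on the minus strand.
Il33, first start: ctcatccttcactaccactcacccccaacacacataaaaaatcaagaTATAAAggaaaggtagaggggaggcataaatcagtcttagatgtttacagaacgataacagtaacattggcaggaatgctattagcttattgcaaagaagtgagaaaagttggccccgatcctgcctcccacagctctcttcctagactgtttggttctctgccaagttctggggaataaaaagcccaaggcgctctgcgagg
Il33, second start: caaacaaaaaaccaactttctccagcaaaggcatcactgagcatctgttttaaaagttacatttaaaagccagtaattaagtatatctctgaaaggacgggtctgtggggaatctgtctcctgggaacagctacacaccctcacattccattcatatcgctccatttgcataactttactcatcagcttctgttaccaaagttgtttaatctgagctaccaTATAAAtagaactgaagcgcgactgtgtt
Il1b: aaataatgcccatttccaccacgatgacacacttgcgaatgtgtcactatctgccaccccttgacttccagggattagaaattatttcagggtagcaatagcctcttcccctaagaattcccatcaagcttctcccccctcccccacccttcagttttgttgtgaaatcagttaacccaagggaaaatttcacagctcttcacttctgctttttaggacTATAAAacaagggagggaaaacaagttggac
The motif began 203 bases before the first Il33 start, 29 bases before the second and 31 bases before that of Il1b. It was found in 12.4% of all 32851 windows of this length. Among the 15 windows of the listed genes it was found in 4, those shown and that of Il18, where it began 175 bases before the start.

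Of the 10 listed genes, 9 had at least 1 such window, 15 windows in all. The consensus of NF-κB, the transcription factor that primes the inflammasome, was found in 7.25% of all windows and, among these, in 1 window each of Nlrp3 and Il1r1. The Nlrp3 window is shown because that gene is the primed sensor and had the same value on all 3 arrays. It is chr11:59541319-59541568 on the plus strand of GRCm38.p6, with the match in capitals, 186 bases before the start.
Nlrp3: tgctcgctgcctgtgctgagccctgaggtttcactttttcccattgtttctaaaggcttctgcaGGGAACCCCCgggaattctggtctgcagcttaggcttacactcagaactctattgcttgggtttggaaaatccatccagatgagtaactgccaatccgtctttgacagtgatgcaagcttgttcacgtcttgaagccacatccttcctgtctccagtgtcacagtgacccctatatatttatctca
The AP-1 motif TGANTCA (6.75% of all windows) was found for Il1rn, and the STAT motif TTCNNNGAA (7.02%) in none of the 15. Both strands were searched and no match overlapped one of another motif. A match describes the letters of these windows and is not a measured site.

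Il1r1, the gene of the signaling receptor of interleukin-1, stood at 9.14 in AAC + DAPA, 9.18 in AAC and 9.16 in sham. The arrays lay within 0.04 of each other, near the 80th percentile, at 80.2 to 80.5. Il1rn, the gene of the antagonist that blocks this receptor, stood at 2.86 in AAC + DAPA, 2.87 in AAC and 2.86 in sham. It lay under the 5th percentile of each array (3.03 in AAC + DAPA, 3.03 in AAC and 3.02 in sham). Its signal over background is not known, so its near equal values say little about its RNA.

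The other ligands and receptors of the family were read from a list of 15 genes, all of them measured. Between AAC and sham 2 were at least 1.5-fold higher and 0 lower, for AAC + DAPA against AAC 0 were higher and 2 lower, and for AAC + DAPA against sham 1 was higher and 0 lower. Over all genes, 4.88% were higher and 4.98% lower between AAC and sham, and 4.16% and 4.18% for AAC + DAPA against AAC. For AAC + DAPA against sham the shares were 3.22% and 3.38%. The same shares apply to the lists that follow. The median over the list was 0.00 in each comparison. In the order of RefSeq genes, the receptor genes Il1r2, Il1r1, Il1rl2, Il1rl1, Il18r1 and Il18rap follow one another on chromosome 1 with no other protein-coding gene between them. Of these neighbours, Il1r2, the decoy receptor, stood at 4.30 on all 3 arrays. Il1rl2, the receptor of interleukin-36, stood at 6.05 in AAC + DAPA, 5.69 in AAC and 5.43 in sham, and was 1.54-fold higher in AAC + DAPA than in sham. Like Il33 it had its highest value in AAC + DAPA. Its log2 difference between AAC and sham, 0.26, was within the SD between probes of a gene (0.31), as was that of Il33.

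Il18rap, the accessory chain of the interleukin-18 receptor, stood at 4.73 in AAC + DAPA, 5.39 in AAC and 4.73 in sham, so the AAC array alone was high, by 1.58-fold. Il18r1, the ligand-binding chain of the same receptor, stood at 3.16 in AAC + DAPA, 3.45 in AAC and 3.45 in sham, under the 25th percentile of each array. Il1f9, the gene of interleukin-36γ, stood at 3.79 in AAC + DAPA, 4.48 in AAC and 3.85 in sham, 1.61-fold lower in AAC + DAPA compared with AAC and 1.55-fold higher in AAC than in sham. In AAC + DAPA it was below the 25th percentile, and with the arrays centred on their medians its difference between AAC and sham was 0.57, short of 1.5-fold. Its log2 difference for AAC + DAPA against sham was −0.06. Il1rap, the chain shared by the receptors of interleukin-1 and interleukin-33, stood at 6.01 on all 3 arrays, and the inhibitory receptor gene Sigirr at 5.01 on all 3.

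Of 27 further genes listed for inflammasomes and pyroptosis, 25 were measured, and most lay within 1.5-fold. Between AAC and sham 2 were higher and 1 lower, for AAC + DAPA against AAC 2 were higher and 0 lower, and for AAC + DAPA against sham 2 were higher and 0 lower. In the same order, the shares of all genes were 4.88% higher and 4.98% lower, 4.16% and 4.18%, and 3.22% and 3.38%. The medians were 0.02, 0.00 and 0.00. Txnip, whose protein binds thioredoxin and can bind NLRP3, had the largest differences, at 17.95 in AAC + DAPA, 16.25 in AAC and 15.45 in sham. It was 3.25-fold higher in AAC + DAPA compared with AAC, 5.66-fold higher compared with sham, and the AAC level lay 1.74-fold above sham. The order over the arrays was the same as for Il33, and how many of all genes share that order was not counted.

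Casp4, the mouse caspase that senses bacterial lipopolysaccharide inside cells and also cuts gasdermin D, stood at 7.49 in AAC + DAPA, 7.62 in AAC and 7.0 in sham. The AAC level lay 1.54-fold above sham, or 0.56 on the log2 scale with the arrays centred on their medians, short of 1.5-fold, and the log2 difference for AAC + DAPA against sham was 0.49. Ninj1, whose protein ruptures the membrane of dying cells, stood at 12.15 in AAC + DAPA, 11.86 in AAC and 12.50 in sham, with the AAC level 1.56-fold below sham and a log2 difference of −0.35 for AAC + DAPA against sham. Naip6, a sensor of flagellin, stood at 4.15 in AAC + DAPA, 3.41 in AAC and 3.39 in sham, 1.67-fold higher in AAC + DAPA compared with AAC and 1.69-fold compared with sham, with the other arrays under their 25th percentile. The Naip genes are close copies of one another, so this probe may read more than 1 of them. Nek7, a kinase that NLRP3 needs for assembly, stood at 13.22 in AAC + DAPA, 13.25 in AAC and 13.15 in sham, and the DNA sensor Aim2 at 4.13 in AAC + DAPA, 4.64 in AAC and 4.27 in sham.

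**Figure D3:**
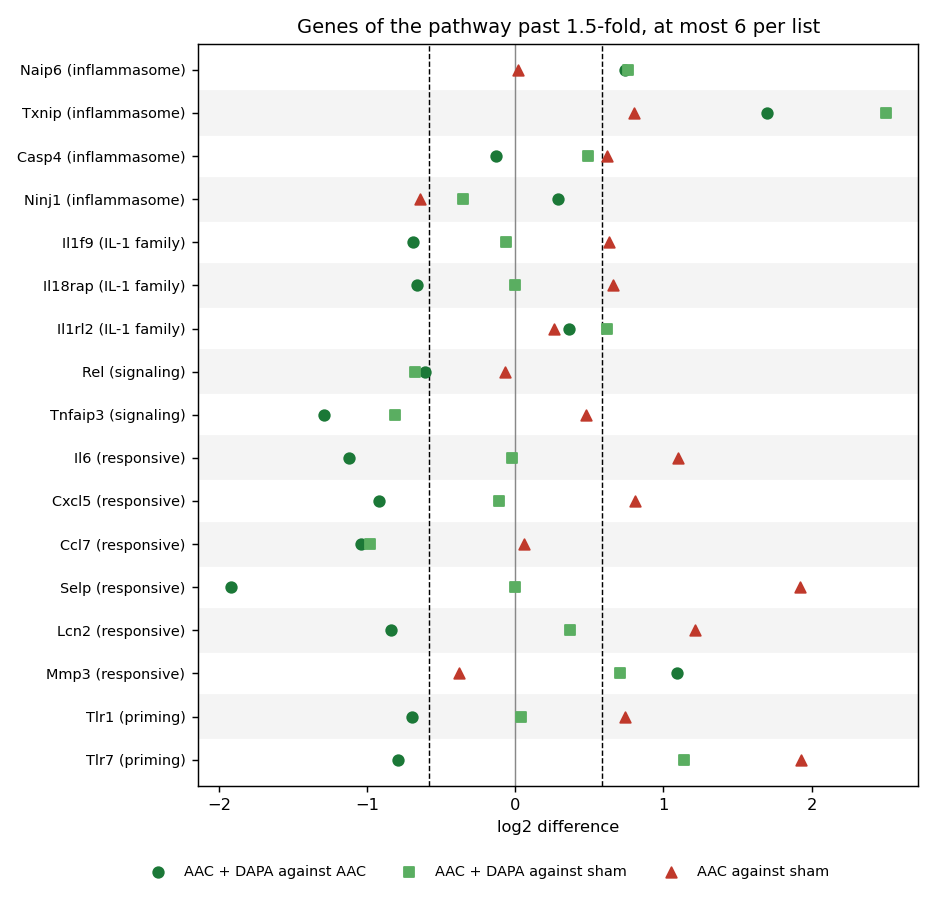
Log2 difference (horizontal axis) of 17 further genes of the pathway past 1.5-fold (dashed lines) in at least 1 comparison, at most 6 per list, for AAC + DAPA against AAC (circles), AAC + DAPA against sham (squares) and AAC against sham (triangles). Txnip lies furthest to the right at 2.50 for AAC + DAPA against sham, and Selp lies at −1.92 for AAC + DAPA against AAC and 1.92 for AAC against sham.

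Of 25 genes listed for the adaptors of interleukin-1 receptors and for NF-κB signaling, 21 were measured. Between AAC and sham 0 were higher and 0 lower, for AAC + DAPA against AAC 0 were higher and 2 lower, and for AAC + DAPA against sham 0 were higher and 2 lower. The genes that were lower were the same in both comparisons of AAC + DAPA. Tnfaip3, the gene of A20, which restrains NF-κB and is itself its target, stood at 4.79 in AAC + DAPA, 6.08 in AAC and 5.60 in sham, 2.45-fold lower in AAC + DAPA compared with AAC and 1.75-fold lower than in sham. Rel, an NF-κB subunit of immune cells, stood at 10.21 in AAC + DAPA, 10.82 in AAC and 10.89 in sham. It was 1.53-fold lower in AAC + DAPA compared with AAC, and with the arrays centred on their medians the difference was −0.54, short of 1.5-fold. Its level was also 1.6-fold lower than in sham (log2 difference −0.68), and this stayed past 1.5-fold with centring (−0.67) and with quantile normalization (−0.68). Myd88, the adaptor of the interleukin-1 receptor and of most Toll-like receptors, stood at 6.71 in AAC + DAPA, 6.78 in AAC and 6.78 in sham.

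Of the genes that interleukin-1 or its relatives can induce, those past 1.5-fold mostly had their high value on the AAC array. All 26 listed genes were measured, and for AAC + DAPA against AAC 1 was higher and 7 lower, between AAC and sham 5 were higher and 0 lower, and for AAC + DAPA against sham 1 was higher and 1 lower. The medians were −0.175 for AAC + DAPA against AAC, 0.095 for AAC against sham and 0.00 for AAC + DAPA against sham. Selp, the gene of P-selectin on endothelium and platelets, stood at 3.21 in AAC + DAPA, 5.13 in AAC and 3.21 in sham, so the AAC array was 3.78-fold above both others, which lay under their 25th percentile. Il6, the gene of interleukin-6, stood at 2.99 in AAC + DAPA, 4.11 in AAC and 3.01 in sham. The AAC + DAPA and sham values were under the 5th percentile of their arrays, so no fold is given.

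Lcn2, the gene of the iron-sequestering lipocalin-2, stood at 8.28 in AAC + DAPA, 9.12 in AAC and 7.91 in sham, 1.79-fold lower in AAC + DAPA compared with AAC and 2.31-fold higher in AAC than in sham. For AAC + DAPA against sham its log2 difference was 0.37, within 1.5-fold. The neutrophil chemokine gene Cxcl5 stood at 4.19 in AAC + DAPA, 5.11 in AAC and 4.30 in sham, with a log2 difference of −0.11 for AAC + DAPA against sham. The monocyte chemokine gene Ccl7 stood at 4.50 in AAC + DAPA, 5.54 in AAC and 5.48 in sham, and was 2.06-fold lower in AAC + DAPA compared with AAC and 1.97-fold lower than in sham. Mmp3, a matrix protease, went the other way, at 6.46 in AAC + DAPA, 5.37 in AAC and 5.75 in sham, 2.13-fold higher in AAC + DAPA compared with AAC and 1.64-fold higher than in sham. These genes respond to many other signals, and which signal they followed was not tested.

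Of 14 receptors whose signals prime the inflammasome genes, all were measured. For AAC + DAPA against AAC 0 were higher and 2 lower, between AAC and sham 2 were higher and 0 lower, and for AAC + DAPA against sham 1 was higher and 0 lower. Tlr7, a sensor of single-stranded RNA that lies on the X chromosome, stood at 8.69 in AAC + DAPA, 9.48 in AAC and 7.55 in sham, 1.73-fold lower in AAC + DAPA compared with AAC and 2.2-fold higher than in sham. Tlr1, a receptor of bacterial lipopeptides, stood at 4.20 in AAC + DAPA, 4.90 in AAC and 4.16 in sham, a log2 difference of 0.04 for AAC + DAPA against sham. Tlr4, the receptor of lipopolysaccharide, stood at 11.68 in AAC + DAPA, 11.15 in AAC and 11.61 in sham, within 1.5-fold in each comparison. With the arrays centred on their medians its log2 difference for AAC + DAPA against AAC was 0.60 in place of 0.53, past 1.5-fold, so that 1 receptor in place of 0 was higher there. Of 8 proteases that can cut the cytokines without the inflammasome, 7 were measured and 0 passed 1.5-fold in any comparison. Among them, Ctsg, Cma1 and Mmp9 lay under the 5th percentile of each array, and Elane and Gzmb under the 25th. The signal of such genes over background is not known.

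The inflammasome is known best from macrophages, and their markers did differ between the arrays. Of 16 measured macrophage and monocyte markers, the AAC + DAPA array had 0 higher and 11 lower than the AAC array (median −0.815), and the AAC array had 11 higher and 0 lower than sham (median 0.855). AAC + DAPA against sham gave 1 higher, Ccr2, and 1 lower, C1qa. The log2 of their summed level was 13.02 in AAC + DAPA, 14.13 in AAC and 12.99 in sham, and Cx3cr1 alone of them was at or under the 25th percentile on every array. Of 11 measured neutrophil markers, Retnlg and S100a9 were higher in AAC than in sham and lower in AAC + DAPA compared with AAC. The other 9 lay within 1.5-fold in both comparisons, and 5 markers were at or under the 25th percentile on every array. The summed levels were 7.39 in AAC + DAPA, 8.12 in AAC and 7.29 in sham. For AAC + DAPA against sham, Retnlg was 1.59-fold higher, with its sham value (3.57) under the 25th percentile. The other 10 neutrophil markers lay within 1.5-fold there. Nlrp3, Pycard, Casp1 and Gsdmd had a difference of 0.00 in each of these comparisons. Identical values on all 3 arrays were found for 14.9% of all genes, and whether they mean equal amounts of RNA was not tested. Of the other lists, Selp, Il6, Lcn2, Cxcl5, Tlr1, Tlr7 and Il18rap were also highest on the AAC array. Against sham, Tlr7 was still 2.2-fold higher in AAC + DAPA. The others lay within 1.5-fold there, Lcn2 with a log2 difference of 0.37. The part of the cells in the differences of these genes was not tested. Il33 and Txnip were highest on the AAC + DAPA array and lowest on the sham array. The summed macrophage level was 13.02 in AAC + DAPA, 14.13 in AAC and 12.99 in sham. The part of these cells in the values of Il33 and Txnip was not tested. Red blood cells were also marked on the AAC array, with the summed level of 2 measured of 6 listed markers, Alas2 and Slc4a1, at 9.35 in AAC + DAPA, 12.09 in AAC and 8.59 in sham.

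**Figure D4:**
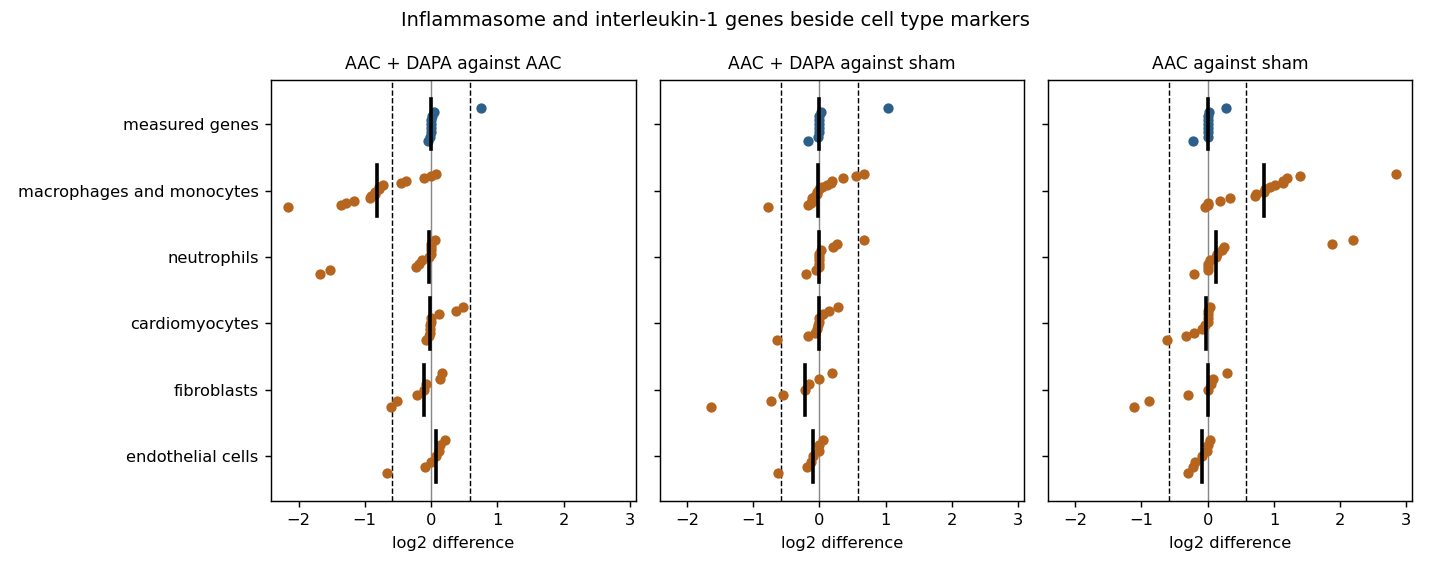
Log2 difference (horizontal axis) of the 9 measured genes and of cell type markers for AAC + DAPA against AAC, AAC + DAPA against sham and AAC against sham, 1 point per gene, with black bars at the median of each list and dashed lines at 1.5-fold. The measured genes have a median of 0.00 in each panel, and the macrophage and monocyte markers have medians of −0.815 for AAC + DAPA against AAC, −0.015 for AAC + DAPA against sham and 0.855 for AAC against sham.

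For the 2 measured genes that varied most, the genes with the nearest pattern over the 3 arrays were taken from 9752 genes above the median mean level, by the Euclidean distance between log2 values centred on each gene's mean. For Il33 they were Nt5e (distance 0.05), the enzyme CD73 that makes adenosine, Ypel3 (0.057) and Sh3rf2 (0.057). Nt5e stood at 6.56 in AAC + DAPA, 5.83 in AAC and 5.48 in sham. A distance under 0.1 from Il33 held for 5 genes. For Il18 the nearest were D230025D16Rik, Gm2888 and Slc36a1, each at 0.008, but 578 genes lay within 0.1 of its pattern. These likenesses rest on 3 arrays and describe them only.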

How the data were processed

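Heart RNA of AAC + DAPA, AAC and sham mice was measured on 3 Affymetrix arrays, 1 per group. The authors deposited normalized log2 values, 1 per probe and array, and 0 columns were left unused. Affymetrix Expression Console is named in the submitters' processing notes. The study's methods name a protocol of Agilent Technologies and an array made for human genes, while the probes name mouse genes. The method of normalization and summary was not given in the sources used here, so how it treats small differences is unknown. The number of arrays limits the precision.

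Of 22206 probes, 19572 name exactly 1 gene, 0 name several and 2634 name none in the platform annotation. A gene was the mean over its probes, and each of the 9 measured genes had 1 probe. Older symbols were matched through RefSeq. Genes were counted at 1.5-fold, the threshold of the study, without a filter on low values. Samples were grouped by their treatment label. The functions were tested on simulated data. The listed genes, the pathway and marker lists and the tests were chosen with earlier results of these data known. Genes named were the 10 listed genes, of each pathway list up to 6 genes past 1.5-fold and above the 25th percentile of their highest array, and the 3 nearest patterns for 2 genes. Genes of the lists within 1.5-fold that are named were chosen for their role after their values were seen, as were markers named by symbol. Alternatives were median centring, quantile normalization, 1 probe per gene by highest mean, a filter at the 25th percentile, leaving out X and Y genes and a threshold of 2-fold. Python 3.11.15, numpy 2.4.6, pandas 2.3.3 and matplotlib 3.10.9 were used.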

Additional observations from a re-analysis of the deposited data

How the results depend on the processing

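At a threshold of 2-fold, 0 of the 9 genes were higher in AAC + DAPA compared with AAC, since Il33 was 1.69-fold higher there, while it stayed counted against sham at 2.06-fold. The other counts and medians of the 9 genes stayed within 1.5 times or within the SD between probes under each alternative run. Centring the arrays on their medians shifted the median of all genes by −0.06 for AAC against sham and 0.07 for AAC + DAPA against AAC, so that Nlrp3, Pycard, Casp1 and Gsdmd differed by these amounts instead of 0.00, and by 0.02 to 0.06 for AAC + DAPA against AAC after quantile normalization. The log2 difference of Il33 for AAC + DAPA against AAC was 0.83 with centring and 0.81 with quantile normalization. The filter at the 25th percentile left out Il1rn. For single genes and for the counts of the other lists, with the alternatives for the lists chosen after seeing the data, 531 values stayed within these limits and 9 did not. With centring, for AAC + DAPA against AAC, Pstpip1 became higher (0.61) and Vcam1 (−0.55) and Socs3 (−0.52) fell short of 1.5-fold. No paired analysis was possible because each group has 1 array. With 1 array per group, no library could be left out. Genes under the 25th percentile of the arrays, such as Il1rn, Il18r1 and Selp in AAC + DAPA and sham, lie low on the arrays, and their signal over background is not known from the deposited values.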
